A study of Cucumis melo with 30 samples.

Results

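Fruit of 2 oriental melon cultivars, HDB-OF and YMR-WF (below, HDB and YMR), was compared at 5 days after anthesis, when the flower opens. Oriental melon is a thin-skinned type of Cucumis melo. The comparison uses 6 of the 30 RNA sequencing libraries of the series, chosen by their titles: 3 of HDB and 3 of YMR at day 5. The other 24 libraries are of the same cultivars at days 15, 25, 30 and 35, and are used to show how the day 5 differences went on. The tissue is given as fruit, with no treatment and no part of the fruit named. The endings OF and WF are not spelled out in the labels, and flesh colour was not measured here. The labels name no allele, so the cultivars are compared as wholes.

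In melon and other cucurbits, the days after pollination are a time of cell division in the fruit wall, followed by a longer phase of cell enlargement. The young fruit is firm and low in sugar. Sugar storage, loss of chlorophyll, carotenoid build-up in coloured flesh, softening and aroma come later, with ripening. Day 5 therefore shows the cultivars before the traits of the ripe fruit are seen. The deposited table names genes only by identifiers (MELO3C numbers), and none of them matched the gene table used here, so no functions, positions or sequences are given and no pathway or marker list could be applied.

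Total counts of the 6 libraries lay between 17621031 and 21368781, and 17149 to 17375 genes per library had at least 10 counts. Of 27427 genes in the table, 18426 were kept by a filter on low counts and tested. A level is given in CPM, counts per 1000000 of the scaled library size. Correlations of log2 CPM were 0.976 to 0.984 between libraries of the same cultivar and 0.938 to 0.955 between cultivars. On the first principal component, with 58.6% of the variance, the HDB libraries lay between -55.7 and -42.3 and the YMR libraries between 40 and 61.5. On the second, with 15.8%, replicate 1 stood apart in both cultivars, at 43.8 in HDB and 27.6 in YMR against -23.9 to -11.7 in the other 4 libraries. Whether replicates came from separate fruits or plants is not labelled. The spread behind the p-values is that between libraries of a group over all 30 libraries, and it may be technical.

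**Figure D1:**
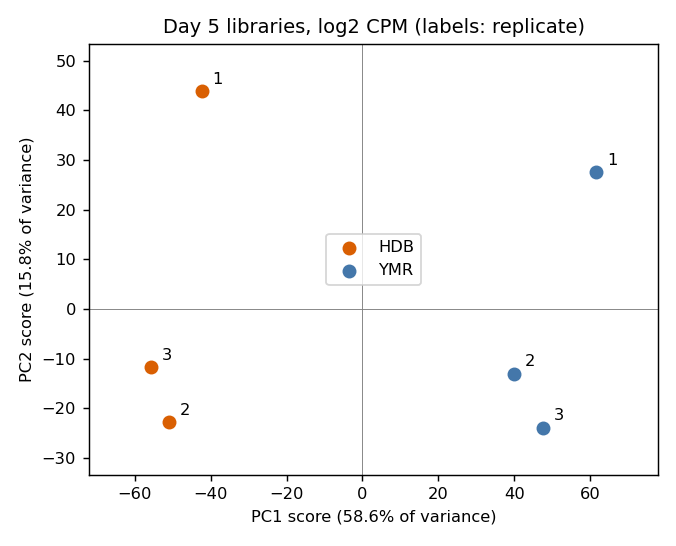
Scores of the 6 day 5 libraries on the first and second principal components of log2 CPM, coloured by cultivar and numbered by replicate. The cultivars separate along the first axis, and replicate 1 of both cultivars lies at 27.6 or higher on the second.

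The first question was which genes differed between the cultivars at day 5. In all, 4012 genes (21.8% of those tested) passed the test, an edgeR quasi-likelihood F test with Benjamini-Hochberg adjustment and a threshold of 0.05. Of these, 1918 (10.4%) were higher in YMR and 2094 (11.4%) were lower. A difference of at least 2-fold was fitted for 1438 of them (7.8% of those tested), 570 higher and 868 lower in YMR. At 4-fold or more the numbers were 184 higher and 287 lower, and at 16-fold or more 46 and 47. The median size of a called log2 difference was 0.65 for genes higher in YMR and 0.82 for genes lower in YMR, against 0.22 for genes that were not called.

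The libraries of the cultivars did not overlap for 3690 of the called genes, or 92%. Among all tested genes this held for 6661 (36.2%). With only the 6 day 5 libraries in the fit, 2529 of 17348 genes (14.6%) were called, and 2214 of them were among the 4012 with the same sign and 0 with the opposite sign. The count was 2667 without replicate 3 of HDB and 2366 without replicate 1 of both cultivars. When the test asked for a difference beyond 2-fold, 111 genes were higher and 161 lower in YMR. Scaling by total counts alone turned the balance, to 2239 higher and 1597 lower. It also turned without the low-count filter, to 1954 higher and 1816 lower. No statement is therefore made about which direction was the more frequent.

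Together, the genes higher in YMR held 13.5% to 15.4% of all counts in the YMR libraries and 8.14% to 9.4% in the HDB libraries. The genes lower in YMR held 8.45% to 9.38% in YMR and 14.7% to 15.5% in HDB. These shares restate the direction of the calls in terms of the RNA sequenced. Genes at every level took part. Of the 9096 genes with a mean of 10 to 100 CPM at day 5, 25.2% were called, with a median called size of 0.58 on the log2 scale. Of the 2107 genes under 1 CPM, 8.59% were called, with a median called size of 2.52, and the median standard error there was 0.72 against 0.14 at 10 to 100 CPM. Small differences of weakly read genes were therefore not detectable at this depth.

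**Figure D2:**
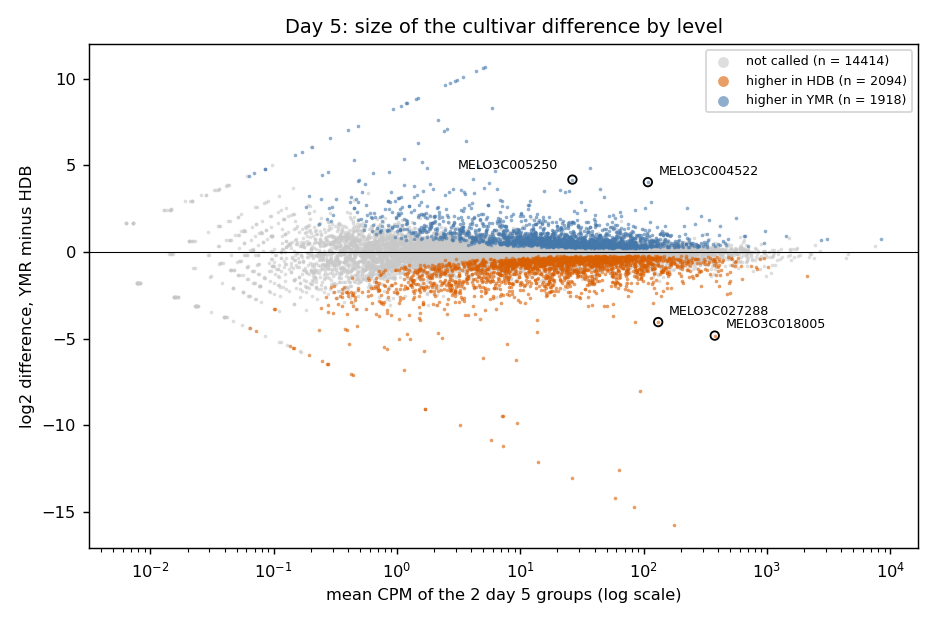
Fitted log2 difference (YMR minus HDB) of the 18426 tested genes against their mean CPM at day 5 on a log scale, coloured by call. Called genes spread over the whole range of levels, and the straight rows of points at the upper and lower left are genes with no count in 1 cultivar, whose fitted values depend on the prior count. The circled genes are the 4 named as read in all 6 libraries.

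Among genes with at least 10 counts in each of the 6 libraries, the largest differences in each direction were near or above 16-fold. MELO3C005250 stood at 1.72, 2.31 and 4.33 CPM in the HDB libraries and at 73.6, 28.3 and 48.3 in the YMR libraries. Its lowest YMR library was thus far above its highest HDB library. This is a log2 difference of 4.17 (SE 0.53, edgeR adjusted p = 5.7e-06). MELO3C004522 had 14.6, 10.8 and 12.3 CPM in HDB and 319, 115 and 177 CPM in YMR. The YMR libraries of both genes had the same order, with replicate 1 highest and replicate 2 lowest. The log2 difference of MELO3C004522 was 4.02 (SE 0.36, edgeR adjusted p = 5.7e-08).

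In the other direction, MELO3C018005 was even across the HDB libraries, at 738, 738 and 710 CPM, and had 35.4, 13.2 and 28.1 CPM in YMR. Its log2 difference was -4.83 (SE 0.54, edgeR adjusted p = 1.1e-06), the largest downward difference among genes read in all 6 libraries that met the naming rule. MELO3C027288 had 176, 386 and 180 CPM in HDB, with replicate 2 well above the other 2, and 18.2, 8.33 and 18.3 CPM in YMR. Its log2 difference was -4.05 (SE 0.49, edgeR adjusted p = 1.1e-05).

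Levels at later days show how these genes went on. In YMR, MELO3C005250 went from 50.1 ± 22.7 CPM (SD, n = 3) at day 5 to 10.3 ± 3.5 at day 15 and 0.308 ± 0.27 at day 25. In HDB its highest mean was 5.2 ± 3.1 CPM, at day 15, and its later cultivar differences were not called (edgeR adjusted p from 0.1 to 0.86). MELO3C004522 went from 204 ± 104 CPM at day 5 to 28.8 ± 5.8 at day 15 in YMR, while HDB had 12.5 ± 1.9 and 48.4 ± 7.8 CPM on these days. It was called lower in YMR at day 30 (log2 difference -3.89, SE 1.17, edgeR adjusted p = 0.013), where it had 39 counts in HDB and 2 in YMR, a ratio of 17.1 with an exact 95% counting interval of 4.42 to 146. That low-count value enters its later mean of -1.47. For both, the day 5 difference was larger than the mean difference of the later days, by 4.17 (SE 0.63) and 5.49 (SE 0.57) on the log2 scale (edgeR adjusted p = 2.6e-05 and 2.1e-07). These 2 genes had been chosen for their day 5 difference, so a smaller later one is partly what that choice gives.

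MELO3C018005 went from 728 ± 16 CPM at day 5 to 26.6 ± 18 CPM at day 15 in HDB. In YMR the levels were 25.6 ± 11 and 1.24 ± 1.2 CPM. It stayed lower in YMR at each later day, with log2 differences of -4.42 (SE 0.6) at day 15, -3.7 at day 25, -2.61 at day 30 and -4.9 at day 35 (edgeR adjusted p from 6.4e-06 to 0.04). MELO3C027288 went from 247 ± 120 to 64.2 ± 45 CPM over the same days in HDB, and YMR had 14.9 ± 5.7 and 3.43 ± 1.7 CPM. Its log2 difference at day 15 was -4.23 (SE 0.52). The test of day 5 against the later mean did not pass for MELO3C018005 (difference -0.92, SE 0.86, edgeR adjusted p = 0.45) or MELO3C027288 (0.76, SE 0.98, edgeR adjusted p = 0.62).

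**Figure D3:**
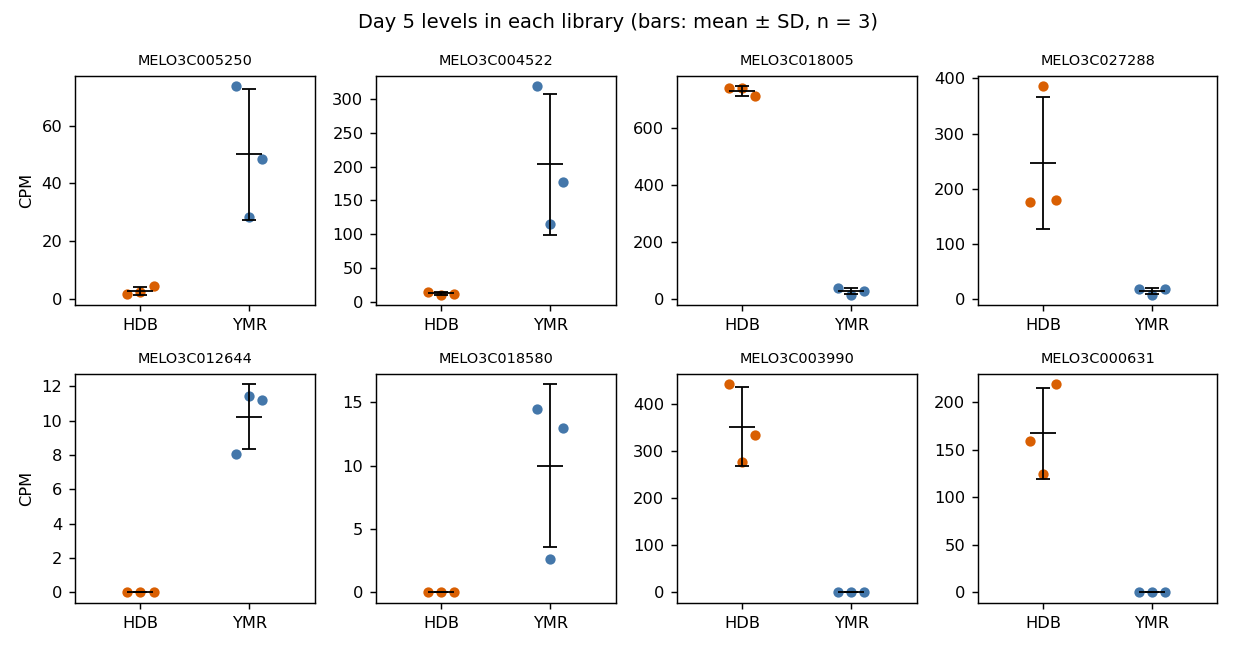
CPM in each day 5 library of 4 genes read in all 6 libraries (upper row) and 4 genes with no count in 1 cultivar (lower row), with the mean and SD of 3 libraries. In none of the 8 do the cultivars overlap, and libraries of 1 group can lie far apart, as for MELO3C027288 in HDB, from 176 to 386 CPM.

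A small number of genes were read in 1 cultivar alone. With at least 1 CPM on average in the other cultivar, 14 genes were without a count in all HDB libraries of day 5, and 10 in all YMR libraries. All 24 were tested and called, which was nearly given, since they were picked from the same libraries by these counts. Those read only in YMR were weaker, with a median of 5.13 CPM and a highest level of 10.2 CPM, while those read only in HDB had a median of 21.3 CPM and reached 352 CPM. With up to 3 counts allowed in the low cultivar the numbers were 22 and 18. A level of 10 CPM was reached by 2 of the genes read only in YMR and 7 of those read only in HDB. No count in 3 libraries allows up to 0.0478 CPM in HDB and 0.0417 CPM in YMR, from a floor of 3 counts over the group that covers counting error only.

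Most of these genes remained without counts, or nearly so, in the same cultivar. Of the 14 genes without a count in HDB at day 5, 10 had none in HDB on any later day, 2 had 1 to 3 counts in the 12 later libraries, and 2 had more. Of the 10 without a count in YMR, 5 had none on any later day, 2 had 1 to 3 counts and 3 had more. In none of the 24 did the cultivar without counts at day 5 reach a mean of 1 CPM on a later day. Counts alone do not show whether such a gene was not transcribed or its reads were not assigned, and this was not tested.

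MELO3C012644 had 8.05, 11.4 and 11.2 CPM in the YMR libraries and was not read in HDB at day 5 or later. Its YMR level exceeded the HDB floor at least 214-fold (edgeR adjusted p = 1.6e-06). MELO3C018580 had 14.5, 2.61 and 12.9 CPM in YMR and no count in HDB, at least 209-fold higher (edgeR adjusted p = 6.1e-04). Replicate 2 of YMR was low for it, with 68 counts against 334 and 296. Its YMR level was 63.9 ± 28 CPM at day 25, when the HDB libraries held 5 counts in all.

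MELO3C003990 had 442, 278 and 335 CPM in HDB and no count in YMR, at least 8442-fold lower (edgeR adjusted p = 2.7e-10). It was read in HDB at every day. MELO3C000631 differed from it in time. It had 159, 125 and 219 CPM in HDB at day 5, or 2636 to 4397 counts per library, and no count in YMR, at least 4020-fold lower (edgeR adjusted p = 8.7e-07). After day 5 only 2 counts of it remained in HDB, at day 15, and YMR had 3, all in replicate 1 of day 35. Its difference was thus read at day 5 alone. With DESeq2 the call of MELO3C000631 was lost (adjusted p = 0.096, in a range of 8.6e-07 to 0.096 over all 15 alternatives).

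By mean level, the most counted gene was not the same in both cultivars, but 1 library of each had the order of the other cultivar. MELO3C007269 was the most counted gene of HDB at day 5, at 6627, 7591 and 6054 CPM, and had 8227, 9112 and 7836 CPM in YMR. All YMR libraries lay above all HDB libraries, but the log2 difference of 0.31 (SE 0.15, edgeR adjusted p = 0.14) did not pass the test. MELO3C009260 was the most counted gene of YMR, at 13732, 8290 and 9445 CPM, against 7343, 6043 and 5314 in HDB. It lay above MELO3C007269 in replicate 1 of HDB and below it in replicate 2 of YMR. Its log2 difference was 0.75 (SE 0.2, edgeR adjusted p = 0.0082). That call was lost with only the 6 day 5 libraries (edgeR adjusted p = 0.085), without replicate 1 of YMR (0.087) or replicate 3 of HDB (0.054), and with the 2-fold threshold, in a range of 9.5e-04 to 1 over 15 alternatives.

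For 5177 genes, or 28.1% of those tested, the 95% interval of the log2 difference lay within -0.5 to 0.5. The most abundant of them was MELO3C012331, with 2481, 2249 and 2366 CPM in HDB and 2162, 2217 and 2240 CPM in YMR. Its log2 difference was -0.1, with an interval of -0.34 to 0.14. MELO3C020441 followed, at 2121, 1895 and 1812 CPM in HDB and 1903, 1431 and 1567 CPM in YMR, which overlap. Its log2 difference was -0.25, with an interval of -0.47 to -0.03 that lies below 0 (edgeR adjusted p = 0.096). It passed the test without replicate 1 of YMR (edgeR adjusted p = 0.02) and with DESeq2 (adjusted p = 0.037), in a range of 0.02 to 1 over 15 alternatives.

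The day 5 differences were set beside the time of life at which each gene was most read, taken as the day with the highest mean CPM over both cultivars. Of the 3762 genes with their highest level at day 25, 546 (14.5%) were lower and 283 (7.52%) higher in YMR at day 5, against 11.4% and 10.4% of all tested genes. Their median log2 difference was -0.11 against -0.03 for all tested genes. Of the 2324 genes highest at day 30, 227 (9.77%) were lower and 330 (14.2%) higher in YMR. The 5735 genes highest at day 5 itself had 606 lower (10.6%) and 557 higher (9.71%), near the shares of all tested genes.

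These shares moved with the fit, and so did those over all tested genes. With total counts alone, 8.67% of all tested genes were lower and 12.2% higher in YMR, against 10.8% and 9.14% of the day 25 genes and 7.27% and 17.7% of the day 30 genes. Without replicate 1 of both cultivars, 6.26% of all tested genes were lower and 6.47% higher, against 9.36% and 4.73% of the day 25 genes and 5.77% and 9.55% of the day 30 genes. With the 6 day 5 libraries alone, 7.6% of all tested genes were lower and 6.98% higher, against 6.57% and 4.31% of the day 25 genes and 5.43% and 6.85% of the day 30 genes. In that fit the day 25 genes were thus not more often called lower, nor the day 30 genes more often called higher, than all tested genes. The genes highest at day 5 had 9.52% lower and 8.82% higher in that fit, both above the shares of all tested genes. Without replicate 1 of both cultivars they had 4.98% and 5.38%, both under the 6.26% and 6.47% of all tested genes. The day of the highest level was taken from means that include the day 5 libraries.

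Genes were also grouped by a step that uses no day 5 library. Of the 3955 genes that rose in both cultivars from day 15 to day 25, 606 (15.3%) were lower and 410 (10.4%) higher in YMR at day 5, against 11.4% and 10.4% of all tested genes. With total counts alone the shares of the rising genes were 11.2% lower and 12.8% higher, against 8.67% and 12.2% of all tested genes. Without replicate 1 of both cultivars they were 9.38% and 7.31%, against 6.26% and 6.47%. With the 6 day 5 libraries alone they were 6.49% and 5.04%, both under the 7.6% and 6.98% of all tested genes. Of the 4736 genes that fell in both cultivars over that step, 467 (9.86%) were lower and 536 (11.3%) higher. In this main fit these shares were close to those of all tested genes. With total counts alone the falling genes had 7.81% lower and 12.6% higher. With the 6 day 5 libraries alone they had 9.23% and 9.67%, both above the shares of all tested genes in that fit. Without replicate 1 of both cultivars they had 5.11% and 6.5%.

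The second question was whether the day 5 differences were still present later. The days share no library. At day 35, 32.8% of the genes higher in YMR at day 5 were again higher, against 23.5% of all tested genes, and 18.7% were lower. Of the genes lower in YMR at day 5, 36.7% were again lower at day 35, against 24.2% of all tested genes, and 20.6% were higher. In numbers, 1398 of the 4012 genes kept their direction and 789 had the opposite one, or 15.9% and 8.98% of the 8784 genes (47.7% of those tested) called at day 35. The direction was kept more often than turned at day 35 under each of the alternatives run.

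At day 15, 986 genes kept their direction and 815 had the opposite one, or 13.1% and 10.8% of the 7537 genes called there. Of the genes higher in YMR at day 5, 22.7% were again higher, against 20.4% of all tested genes, and of those lower in YMR 26.3% were again lower, against 20.5%. Without replicate 1 of HDB the order turned, to 768 and 830, and without replicate 3 of HDB or replicate 1 of YMR the opposite count dropped to 464 and 491. At day 25 the opposite direction was the more frequent, with 1131 genes against 969. Of the genes higher in YMR at day 5, 27.5% were lower in YMR at day 25, against 21.7% of all tested genes, and 25% were again higher, against 26.6%. Of those lower in YMR at day 5, 28.8% were higher, against 26.6%, and 23.4% again lower, against 21.7%. The latter group was thus above all tested genes in both directions. The order of opposite and kept directions at day 25 also turned without single libraries. It became 837 against 854 without replicate 2 of HDB and 715 against 716 without replicate 3 of HDB. Without replicate 1 of YMR it was 745 against 832, and with the 2-fold threshold 18 against 64. At day 30, 963 genes kept their direction and 684 had the opposite one (422 and 445 without replicate 3 of HDB or replicate 1 of YMR), and total counts alone turned the order, to 822 and 870. Of the genes higher in YMR at day 5, 22.9% were again higher at day 30, against 17% of all tested genes, and of those lower in YMR 25% were again lower, against 16.5%. The shares called over all tested genes were 40.9% at day 15, 48.3% at day 25 and 33.4% at day 30. The fit shared its estimate of the spread over all days, while replicates spread most at day 15. Numbers called on different days are therefore not strictly comparable.

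**Figure D4:**
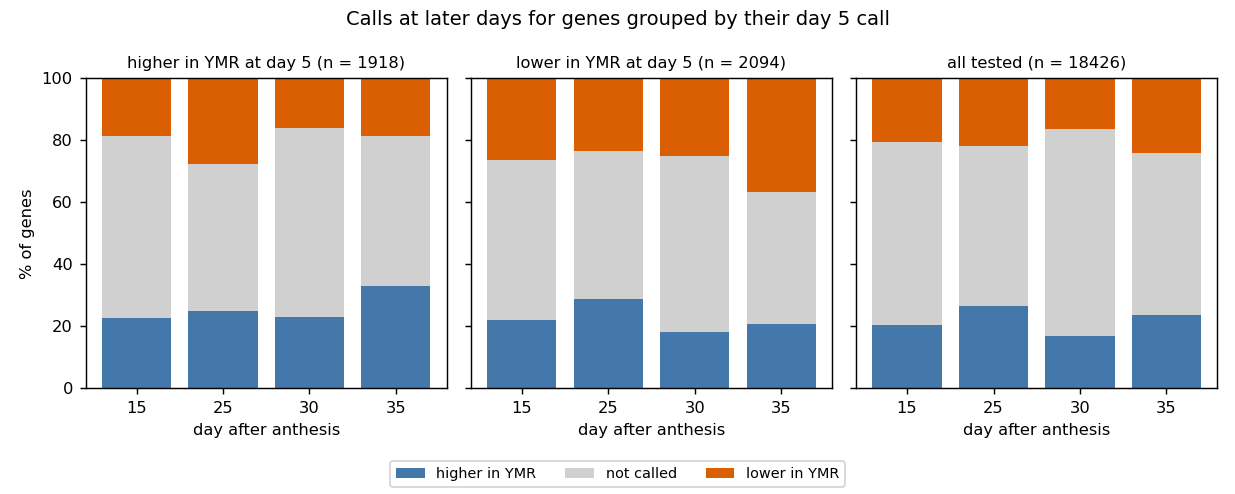
Share of genes (in %) called higher in YMR, lower in YMR or not called at days 15, 25, 30 and 35, for the genes higher in YMR at day 5, those lower in YMR at day 5, and all tested genes. The shares of the 3 panels differ most at day 35, where 32.8% of the first, 20.6% of the second and 23.5% of all tested genes were higher in YMR.

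Followed over all 4 later days, 482 of the 4012 genes (12%) were called on none of them, 258 of these higher and 224 lower in YMR at day 5. Calls on 1 day alone were not particular to day 5. They made up 1058 of the 7537 genes called at day 15 and 1208 of the 8893 at day 25. For day 30 the numbers were 520 of 6159, and for day 35 they were 1326 of 8784. In 1419 genes (35.4%) every later call had the direction of day 5, in 1090 (27.2%) every later call had the opposite direction, and in 1021 (25.4%) both occurred. The direction of day 5 was called at all 4 later days for 180 genes, 86 of them higher in YMR, and the opposite one at all 4 for 68 genes, 35 of them higher in YMR at day 5. The number called at day 5 alone was 298 without replicate 3 of HDB, 291 without replicate 1 of YMR and 193 without replicate 1 of both cultivars.

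The change of the cultivar difference was then tested itself. The day 5 difference departed from the mean of the 4 later differences in 6492 genes (35.2%; edgeR adjusted p under 0.05), 3025 with a more positive and 3467 with a more negative value at day 5. These included 2486 of the 4012 genes called at day 5, and in 2152 of them the day 5 difference was the larger in size. The other 4006 were not called at day 5. The 2486 genes were chosen by their day 5 call and by the departure, so a larger size at day 5 is partly what that choice gives. The later mean also shrinks where the later differences have opposite signs. In 1349 genes called at day 5 the departure was estimated and did not pass the test. The term could not be estimated for 1121 genes with no count in some groups, 177 of them called at day 5, among them MELO3C000631.

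The rule named 4 genes for the size of this departure. MELO3C014666 had 11.6, 9.35 and 13.4 CPM in HDB and 45.8, 25 and 30.4 CPM in YMR at day 5, a log2 difference of 1.56 (SE 0.33, edgeR adjusted p = 0.0014). With the 2-fold threshold this call was lost (edgeR adjusted p = 0.38, in a range of 6.5e-05 to 0.38 over 15 alternatives). At day 25 it stood at 155 ± 7.8 CPM in HDB and at 1.46 ± 0.12 CPM in YMR. Its log2 difference there was -6.73 (SE 0.43), and the day 5 value exceeded the later mean by 6.2 (SE 0.42, edgeR adjusted p = 2e-10). MELO3C027127 had 3 to 5 counts per HDB library and 18 to 122 per YMR library at day 5, a log2 difference of 3.81 (SE 0.74, edgeR adjusted p = 6.8e-04), and was lower in YMR from day 25 on. Its day 30 level was 30.4 ± 23 CPM in HDB and 2.4 ± 0.9 CPM in YMR. Its day 5 value exceeded the later mean by 6.04 (SE 0.8, edgeR adjusted p = 4.1e-06).

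MELO3C021164 had 55, 16 and 26 counts in the HDB libraries and 0, 1 and 1 in the YMR libraries at day 5, a ratio of HDB to YMR of 55.6. Counting error alone gives it an exact 95% interval of 15 to 466. The day 5 call (edgeR adjusted p = 0.003) was lost without replicate 1 of both cultivars (edgeR adjusted p = 0.071, in a range of 8.3e-06 to 0.071). By day 15 both cultivars were near each other, at 2.55 ± 1 CPM in HDB and 3.14 ± 1.9 in YMR, and at day 30 YMR was higher, with 207 ± 121 CPM against 9.91 ± 2.2. The day 5 value lay below the later mean by a log2 term of -6.84 (SE 1.21, edgeR adjusted p = 1.4e-04). MELO3C000680 was higher in YMR at all days, and its mean HDB level was higher at day 5, at 2.49 ± 2.4 CPM, than at any later day. That mean rests on replicates 2 and 3, at 4.77 and 2.64 CPM, while replicate 1, at 0.0464 CPM or 1 count, lay within the range of the later HDB libraries. Its day 5 difference was smaller than the later mean by a log2 term of -6.4 (SE 0.87, edgeR adjusted p = 7e-06).

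The step to day 15 was tested in the same way. The cultivar difference at day 5 departed from that at day 15 in 6406 genes (34.8%; 4028 with only the 12 libraries of these days in the fit). Among them were the 815 genes called with opposite signs on these days, 357 higher in YMR at day 5 and lower at day 15 and 458 the reverse. Opposite differences add up in this term, so it was nearly given that these genes passed. A further 1264 were called at day 5 but not at day 15, and 3638 at day 15 but not at day 5. Of the 986 genes with the same sign on both days, 845 showed no departure that passed the test.

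Of the genes named for their change of sign, a pair was higher in YMR at day 5 and lower at day 15. MELO3C026805 had 0.603, 1.37 and 0.947 CPM in HDB and 17.3, 5.87 and 12.4 CPM in YMR at day 5, a log2 difference of 3.6 (SE 0.71, edgeR adjusted p = 7.8e-04). At day 15 it had 17.1, 10.3 and 1.15 CPM in HDB and 1.29, 2.12 and 0.643 in YMR, which overlap, and a log2 difference of -2.81 (SE 0.68, edgeR adjusted p = 0.002). That later call was lost with only the libraries of day 15 (edgeR adjusted p = 0.084, in a range of 1.1e-04 to 0.084). MELO3C004296 was weak at day 5, with 0, 2 and 3 counts in HDB and 23, 18 and 27 in YMR, a log2 difference of 3.48 (SE 0.83, edgeR adjusted p = 0.004). At day 15 it had 13.6 ± 7.3 CPM in HDB and 0.608 ± 0.31 CPM in YMR, a log2 difference of -4.48 (SE 0.58, edgeR adjusted p = 2.3e-06). The change did not last, as it was called higher in YMR again at days 25 and 35. The log2 difference was 4.4 at day 25 (SE 0.71, edgeR adjusted p = 1.3e-05) and 3.27 at day 35 (SE 0.57, edgeR adjusted p = 4.5e-05). With the 2-fold threshold its day 5 call was lost (edgeR adjusted p = 0.071, in a range of 2.6e-04 to 0.071).

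In the reverse direction, both genes named were nearly gone in HDB by day 15. MELO3C004920 had 13.5, 18.8 and 17.9 CPM in HDB and 1.52, 2.15 and 3.63 in YMR at day 5, a log2 difference of -2.78 (SE 0.62, edgeR adjusted p = 0.0024). At day 15, 4 counts were left in HDB and 57 in YMR. The log2 difference of 3.82 (SE 1.03, edgeR adjusted p = 0.0049) was thus one between low levels. With the 2-fold threshold both calls of MELO3C004920 were lost, at day 5 (edgeR adjusted p = 0.061, in a range of 7.2e-04 to 0.061) and at day 15 (0.057, in a range of 0.0025 to 0.057). MELO3C025219 had 22.5, 14 and 21.3 CPM in HDB and 2.86, 2.92 and 1.79 in YMR at day 5, a log2 difference of -2.93 (SE 0.67, edgeR adjusted p = 0.0046). At day 15 it had no count in HDB, and all 31 counts in YMR were in 1 library, so its crossing rests on that library. The day 15 call was lost with the 2-fold threshold (edgeR adjusted p = 0.088) and with only the 12 libraries of days 5 and 15 (0.077), in a range of 0.013 to 0.088. Its day 5 call was lost with DESeq2 (adjusted p = 0.33), without replicate 1 of both cultivars (edgeR adjusted p = 0.052) and with the 2-fold threshold (0.087), in a range of 9.5e-04 to 0.33 over 15 alternatives.

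**Figure D5:**
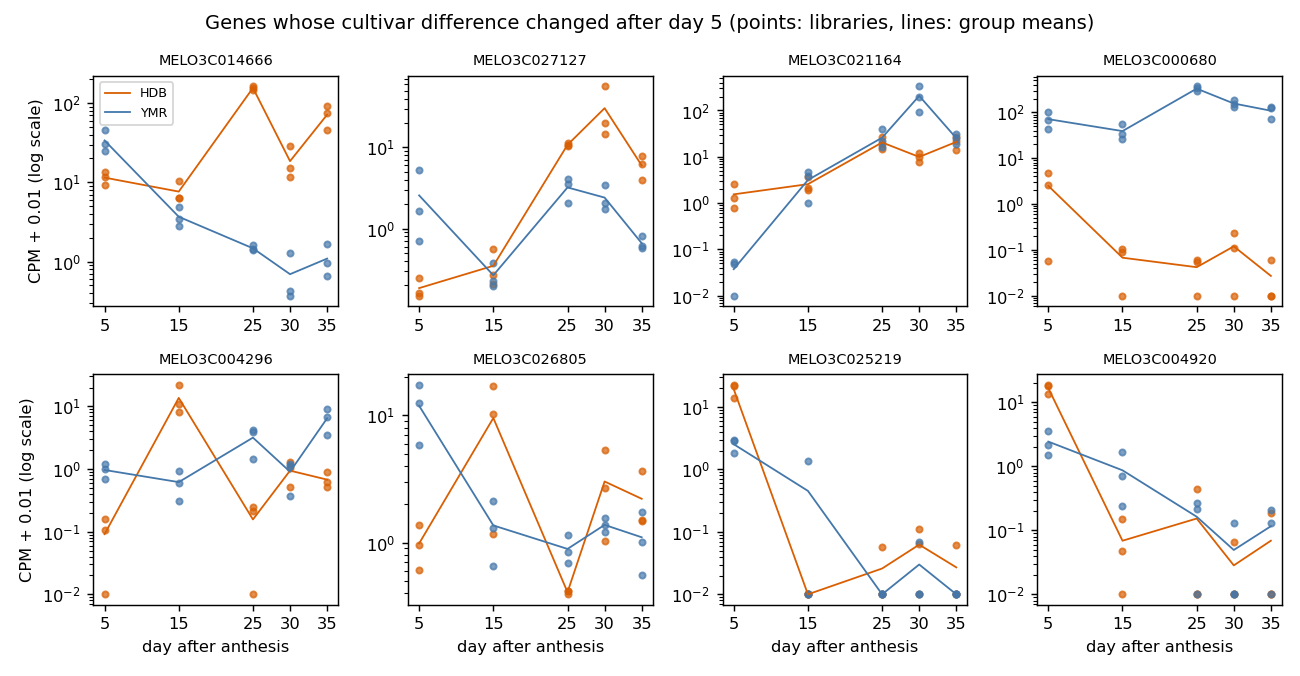
CPM plus an offset of 0.01 on a log scale by day after anthesis, for 4 genes whose day 5 difference departed most from the later mean (upper row) and 4 whose difference changed sign between day 5 and day 15 (lower row). Points are libraries and lines join the group means. The lines cross after day 5 in 7 of the 8 panels, and in MELO3C000680 the gap widens instead.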

How the data were processed

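The authors deposited raw counts of reads as 1 table of 27427 genes and 30 libraries. The submitters' processing notes list HISAT2 (alignment) and HTSeq (counting), with no versions. Genome build, annotation, strand and counting settings: not given in the sources used here. For that reason reads of near-identical, overlapping or antisense genes could not be told apart. Of the 27427 identifiers, 0 matched a table of 28628 melon genes (assembly USDA_Cmelo_AY_1.0).

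Groups and replicate numbers were read from the sample titles. Replicate pairs at day 5 had chi-square statistics of 21.2 to 62.5 per degree of freedom, where counting error alone gives about 1, so no pair was taken for repeat copies of 1 library. Genes were kept by filterByExpr (minimum count 10, minimum total 15), scaled by TMM and fitted with edgeR 4.0.16 (R 4.3.3, limma 3.58.1) with 10 group means over all 30 libraries and robust dispersions, with a biological coefficient of variation of 19.1%. Estimated by group, it was 20.3% in HDB and 20.8% in YMR at day 5. It ran from 9.07% in HDB at day 25 to 28.7% in HDB at day 15. Two-sided quasi-likelihood F tests gave YMR minus HDB at each day, and the day 5 difference minus the mean later difference or minus that of day 15. P-values were adjusted by Benjamini-Hochberg over all 18426 genes. Standard errors are the absolute log2 difference over the square root of F. Principal components used log2 CPM with a prior count of 2. The test was checked on simulated data, with independent counts drawn from the spread fitted here. That check does not cover a shift shared by replicates or a spread that differs between groups.

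Genes were named by a rule. Each needed at least 10 CPM in a group of its comparison, groups that do not overlap at day 5, and a call in both the 30-library and the 6-library fit. Within it came the largest differences with at least 10 counts in every library, the highest levels among genes with no count in 1 cultivar, the largest departures from the later mean, and the strongest sign changes to day 15, with 2 identifiers per direction. The most counted gene of each cultivar and the 2 most abundant genes with an interval within 0.5 were added. The comparison and these lists were chosen with earlier results of these data known. Alternatives were RLE size factors, total counts, DESeq2 1.42.0, no filter, the replicate number as a block, fewer libraries in the fit, a 2-fold threshold (glmTreat) and each day 5 library left out. Leaving out replicate 1 of both cultivars, and the block in the 6-library fit, were added after the data had been seen.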

Additional observations from a re-analysis of the deposited data

Results flagged for a closer look

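Differences between the cultivars that changed between days, by a test of the change itself, were found for 6492 genes between day 5 and the mean of the later days and for 6406 genes between day 5 and day 15 (edgeR, adjusted p under 0.05). Against the later mean, the log2 difference at day 5 was more positive by 6.2 for MELO3C014666 and 6.04 for MELO3C027127, and the term was -6.84 for MELO3C021164 and -6.4 for MELO3C000680. Against day 15 the term was 7.96 for MELO3C004296, 6.41 for MELO3C026805, -9.12 for MELO3C025219 and -6.6 for MELO3C004920, and these 4 had opposite signs on the 2 days. The value of MELO3C025219 is a fitted one against a group with no count and is no bound. That of MELO3C000680 rests on later HDB groups with few counts. With 3 libraries per group, no search for single outlying libraries was made.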

How the results depend on the processing

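RLE size factors, DESeq2, no low-count filter and total counts alone each left the counts of called genes within 1.5 times of those reported. This held for genes called at day 5, in both tests of change and at day 5 alone. The balance of directions at day 5 turned with total counts (2239 higher, 1597 lower) and without the low-count filter (1954 higher, 1816 lower). The replicate number as a block gave 3870 genes at day 5, and 3203 in the fit of 6 libraries. Deviations of libraries with the same number correlated at 0.31, 0.03 and 0.15 for numbers 1 to 3. The highest correlations with a different number were -0.06, 0.2 and 0.04. The same-number value was thus the higher for numbers 1 and 3, and the lower for number 2. The main fit did not pair libraries by number, and these values do not settle whether it should have. The 2-fold threshold left 272 genes at day 5 (111 higher, 161 lower), 1100 against the later mean, 820 against day 15 and 121 called at day 5 alone, since it asks for larger differences. Fits of single days gave 2529 (1211 higher, 1318 lower), and days 5 and 15 alone gave 4028 for the change between them. Leaving out 1 library gave 2667 to 3760 genes, 1221 to 1782 of them higher, and 291 to 425 at day 5 alone. Without replicate 1 of both cultivars the counts were 2366, 1203 higher and 1163 lower, with 193 at day 5 alone. For genes read in 1 cultivar, a minimum of 10 CPM left 2 in YMR, and allowing 3 counts gave 22 in YMR and 18 in HDB. Beyond what fewer samples or a stricter threshold give, the cause was not tested. For the named genes, 448 of the recomputed differences kept direction and call, 16 lost the call, 2 gained it, and no direction turned. Depth limits genes under 1 CPM most.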
